A study of Mus musculus with 6 samples.

Results

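The epithelial sodium channel (ENaC) subunit genes Scnn1a, Scnn1b and Scnn1g were found in the deposited expression table by their gene symbols. All 3 were present among its 23361 gene rows. The material was isolated taste cells, freed with enzymes from the epithelium around the circumvallate (CV) papilla and the foliate (Fol) papillae, which carry the taste buds of the rear tongue. They came from C57BL/6 mice of 2 months and of 6 months, with no other treatment or allele named, and each of the 3 libraries per age was made from cells pooled from several mice, with more mice in a pool at 2 months. The table gives each gene 1 value per age, in FPKM (fragments counted on a gene, scaled by the length of its transcript and by the size of the library), as the authors' value over the 3 libraries. Values of the single libraries were not analysed here, so no value below has an SD, no difference was tested, and the spread between pools is unknown.

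ENaC lets sodium cross the apical membrane of tight epithelia and is blocked by amiloride. The α subunit, encoded by Scnn1a, is needed for a working channel, and the β and γ subunits, encoded by Scnn1b and Scnn1g, raise its current and carry much of its control. In taste buds the channel serves the attractive taste of sodium, and in rodents this amiloride-sensitive response is known to be strong in the fungiform papillae of the front of the tongue and weak in the CV papilla. The same subunits are known from ducts of salivary glands and from other lining epithelia.

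Scnn1a lies on the plus strand of chromosome 6 of GRCm38, chr6:125320659-125344943 by GENCODE, and its main transcript has 12 exons and 3499 bases. No other annotated gene overlaps it. Scnn1g and Scnn1b are neighbours on the plus strand of chromosome 7, at chr7:121734479-121768475 and chr7:121865038-121918514. The end of Scnn1g and the start of Scnn1b are 96562 bases apart, and 0 protein-coding genes lie between them. The main transcript of each has 13 exons, with 2991 bases for Scnn1g and 2478 bases for Scnn1b. Cog7, on the other strand, overlaps the span of Scnn1b, but its exons share 0 bases with the exons of that transcript.

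Of the 3 subunits, the promoter set used here matched 2, and the promoters of these neighbouring genes are shown. They come from RefSeq (GRCm38.p6), run 5′ to 3′ on the plus strand from 250 bases before to 50 bases after the transcript start, and lie at chr7:121734229-121734528 for Scnn1g and chr7:121864788-121865087 for Scnn1b. The promoter of Scnn1a was not analysed here. Capitals mark the GC box GGGCGG, read on either strand.
Scnn1g: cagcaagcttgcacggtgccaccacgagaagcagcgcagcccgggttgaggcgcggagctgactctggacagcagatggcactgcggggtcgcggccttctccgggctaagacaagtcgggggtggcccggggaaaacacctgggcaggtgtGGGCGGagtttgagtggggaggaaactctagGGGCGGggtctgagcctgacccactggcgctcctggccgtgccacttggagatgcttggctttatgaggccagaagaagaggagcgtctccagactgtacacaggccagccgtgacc
Scnn1b: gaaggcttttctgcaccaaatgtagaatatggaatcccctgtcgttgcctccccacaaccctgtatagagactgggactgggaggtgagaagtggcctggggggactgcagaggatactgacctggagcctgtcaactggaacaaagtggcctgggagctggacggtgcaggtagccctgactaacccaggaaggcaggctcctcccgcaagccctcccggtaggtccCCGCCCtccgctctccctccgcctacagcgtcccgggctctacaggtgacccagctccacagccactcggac

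In the Scnn1g promoter the GC box occurs at 98 and 67 bases before the start. The Scnn1b promoter holds it on the minus strand, 22 bases before the start. Of the 32851 promoters of the same length in the RefSeq table, 35.7% hold this motif, so its presence is common. GC content was 64.7% for Scnn1g and 61.7% for Scnn1b, against a median of 52.7% over all promoters. The TATA box TATAAA, the CCAAT box, the AP-1 site TGACTCA, the steroid receptor half-site AGAACA and the E-box CACGTG were searched on both strands, and these letters are in neither window. They occur in 13.6%, 37.4%, 5.20%, 19.0% and 7.15% of all promoters.

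All 3 subunits were detected in CV/Fol taste cells at both ages, and Scnn1a was by far the highest. The value of Scnn1a was 55.8 FPKM at 2 months and 55.6 at 6 months. Scnn1b was at 9.74 FPKM at 2 months and 7.54 at 6 months. Scnn1g was at 6.15 FPKM at 2 months and 4.51 at 6 months. The order α over β over γ was thus the same at both ages, while the α value barely differed and the values of both partners were lower in the older mice.

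**Figure D1:**
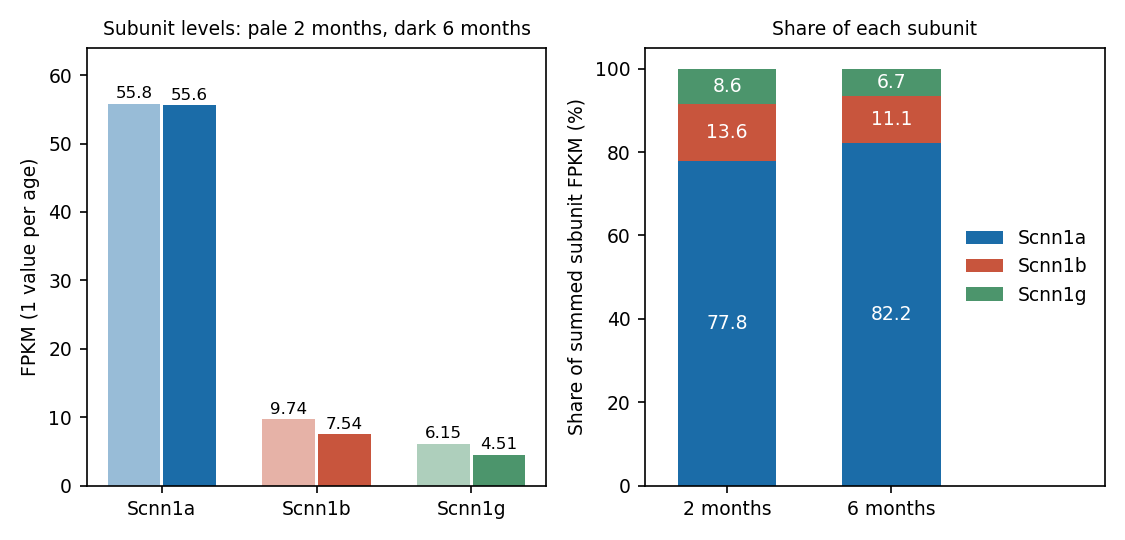
Left, level of each ENaC subunit in FPKM, with a pale bar for 2 months and a dark bar for 6 months. Right, share of each subunit in the summed FPKM of the 3 genes, in percent. Each bar is the authors' single value for an age, so there are no error bars. The Scnn1a bars are at 55.8 and 55.6 FPKM, and its share is 77.8% at 2 months and 82.2% at 6 months.

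FPKM values are scaled by transcript length, so the subunits can be set side by side within an age. The Scnn1a level was 5.73 times that of Scnn1b at 2 months and 7.38 times at 6 months. Against Scnn1g it was 9.08 times as high at 2 months and 12.3 times at 6 months. The 2 smaller subunits stayed closer to each other, with a Scnn1b level of 1.58 times that of Scnn1g at 2 months and 1.67 times at 6 months. Scnn1a held 77.8% of the summed FPKM of the 3 genes at 2 months and 82.2% at 6 months. The share of Scnn1b was 13.6% at 2 months and 11.1% at 6 months, and that of Scnn1g was 8.57% and 6.66%. These ratios describe RNA and say nothing of the make-up of the channel protein. The sum of the 3 genes was 71.7 FPKM at 2 months and 67.6 at 6 months.

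A gene whose 2 ages averaged 1 FPKM or more was called expressed, and 12652 genes were. Among them Scnn1a stood high. Its level was at or above that of 87.3% of these genes at 2 months and 87.7% at 6 months. Scnn1b stood near the middle at 2 months, at or above 44.4% of the genes, and at or above 37.1% at 6 months. Scnn1g was in the lower part, at or above 31.5% at 2 months and 24.6% at 6 months.

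Changes between the ages were taken on the log2(FPKM + 1) scale, 2 months subtracted from 6 months, which makes changes of low genes look smaller. The change was -0.0064 for Scnn1a, -0.33 for Scnn1b and -0.38 for Scnn1g. As a plain ratio, the 6 month value was 0.774 times the 2 month value for Scnn1b and 0.733 times for Scnn1g. Of the 3 subunits, 0 passed a difference of 1.5-fold on the log2(FPKM + 1) scale. Over all expressed genes, 1.72% were lower and 1.05% were higher by at least that much.

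The change of Scnn1a was close to the middle of all genes, whose median was -0.012 with quartiles of -0.10 and 0.08. A change at or under that of Scnn1a was found for 51.8% of them. Only a small part of the genes had changes as low as those of the other subunits, with 3.96% at or under Scnn1b and 3.22% at or under Scnn1g. With an average of 5 FPKM or more required, these shares were 3.93% and 3.24%. Without values of single libraries, a place in this distribution cannot be set against the spread between pools.

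**Figure D2:**
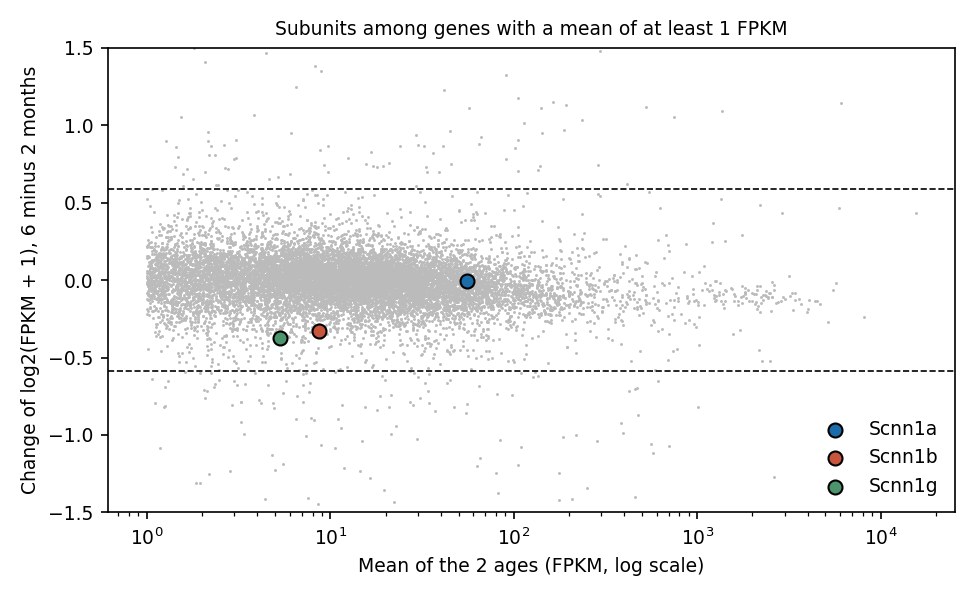
Change of log2(FPKM + 1), 6 minus 2 months, against the mean FPKM of both ages on a log axis. Grey points are expressed genes (an average of 1 FPKM or more), and 141 genes beyond the vertical range are not drawn. Dashed lines mark 1.5-fold on this scale. Scnn1a lies in the centre of the cloud at -0.0064, and Scnn1b (-0.33) and Scnn1g (-0.38) lie at its lower edge, above the dashed line.

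By the distance between log2(FPKM + 1) values at the 2 ages, the genes nearest to Scnn1a were Rnpepl1, with 56.1 and 55.6 FPKM at 2 and 6 months, and Llgl2, with 56.3 and 55.7 FPKM. Nearest to Scnn1b were Rmrp, with 9.86 and 7.53 FPKM, and Tmem98, with 9.61 and 7.62 FPKM. Nearest to Scnn1g were Clic6, with 6.26 and 4.62 FPKM, and Ctla2a, with 6.10 and 4.68 FPKM. With only 2 values per gene such likeness is weak, and 89 genes lay within a distance of 0.1 of Scnn1a, 26 within that of Scnn1b and 15 within that of Scnn1g.

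The channel belongs to a family with the acid-sensing ion channels, and its relatives had low values in the table. Of Asic1 to Asic5, all 5 averaged under 1 FPKM, and Asic2, Asic4 and Asic5 were listed at 0 in both ages, which in a table without counts can also be a failed estimate. Asic1 was the highest, with 0.790 FPKM at 2 months and 0.717 at 6 months. Scnn1a, Scnn1b and Scnn1g were each above 1 FPKM at both ages.

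Genes that act on ENaC were grouped by role into lists holding 65 genes of the table beside the subunits, of which 52 were expressed. Of these 52, 0 passed 1.5-fold in either direction, where 1.72% of all genes were lower and 1.05% higher by at least 1.5-fold. Lower values at 6 months, of any size, were found for 35 of the 52, or 67.3%, against 53.7% of all genes. Differences in this range moved with the level of a gene. The median change was 0.0081 for genes averaging 1 to 10 FPKM, -0.019 for 10 to 100 FPKM and -0.090 for 100 FPKM or more, bands that were chosen after the values had been seen. Scaling both ages to the same upper quartile, a factor of 1.02 on the 6 month values, gave 47.8% of all genes a lower value and turned the change of Scnn1a to 0.015.

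Proteases that cut the extracellular loops of the α and γ subunits, and so raise the open probability of the channel, were abundant. The highest was Tmprss11d, a serine protease of the airway and oral lining, with 255.9 and 238.9 FPKM at the 2 ages, the younger first. Tmprss4, known as channel-activating protease, was at 186.9 and 167.8 FPKM, and St14, which encodes matriptase, at 74.6 and 67.3 FPKM. Prss8, which encodes prostasin, had the lowest change of the list, -0.38, from 38.9 FPKM at 2 months to 29.7 at 6 months. Furin, which cuts the subunits on their way to the surface, was at 31.6 and 29.2 FPKM. All 7 proteases had lower values at 6 months, where 53.7% of all expressed genes did. Their median change was -0.15 against -0.012 over all genes. All 7 were still lower after the upper quartile scaling. Tmprss11d and Tmprss4, with changes of -0.099 and -0.15, averaged over 100 FPKM, where the median was -0.090 and 74.8% of genes were lower. The rest averaged 10 to 100 FPKM, where the median was -0.019 and 56.3% of genes were lower.

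The inhibitors of these proteases had lower values too, in 3 of 3 cases, where 53.7% of all expressed genes were lower. Spint2, a Kunitz-type inhibitor of prostasin and matriptase, was at 365.2 FPKM at 2 months and 334.4 at 6 months. Spint1, its relative, was at 129.2 and 116.8 FPKM. Serpine2, which encodes protease nexin 1, had a change of -0.40, from 44.0 to 33.1 FPKM. The changes of Spint1 and Spint2, -0.15 and -0.13, stand beside a median of -0.090 for all genes averaging 100 FPKM or more. Of the genes in that band, 74.8% were lower. Serpine2 averaged 10 to 100 FPKM, where the median was -0.019 and 56.3% of genes were lower.

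The genes of hormone and kinase control mostly lay on the other side. Of 11 expressed genes, 9 had higher values at 6 months, also after the upper quartile scaling, and the median change was 0.12. For comparison, 5854 of all 12652 expressed genes had higher values, and the median change of all of them was -0.012. After the scaling, 47.8% of all expressed genes had lower values. Wnk4, a kinase of distal salt transport, had the highest change, 0.33, from 29.0 FPKM at 2 months to 36.8 at 6 months. Sgk1, the kinase that aldosterone induces and that keeps ENaC at the cell surface, was at 65.8 and 68.5 FPKM. Tsc22d3, another gene induced by corticosteroids, was at 21.5 and 24.9 FPKM. Nr3c1, the glucocorticoid receptor, was at 6.55 and 7.12 FPKM, while Nr3c2, the mineralocorticoid receptor through which aldosterone acts, was at 1.17 and 0.916 FPKM. Hsd11b2, the enzyme that shields this receptor from glucocorticoids, was at 0.123 FPKM at 2 months and 0.0613 at 6 months. At these values the receptor and the enzyme were far lower than Sgk1 at both ages.

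Genes of channel removal from the surface split evenly, with 6 of 12 lower and a median change of 0.0053. After the upper quartile scaling, 5 of 12 were lower. These counts stand beside 53.7% of all expressed genes, and 47.8% after that scaling. Nedd4l, the ubiquitin ligase that binds the tails of the subunits, was at 4.49 FPKM at 2 months and 4.26 at 6 months. Its relative Nedd4 was at 89.8 and 93.1 FPKM. Usp2, a deubiquitinase known to favour ENaC at the surface, had the highest change of the list, 0.39, from 4.95 to 6.81 FPKM. Caveolin-1, encoded by Cav1, had the lowest, -0.23, from 16.0 to 13.6 FPKM.

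Of genes linked to the opening of ENaC, Cftr, the chloride channel that shares many epithelia with it, was at 5.78 and 4.23 FPKM, a change of -0.38. Marcks and Marcksl1, which hold phosphoinositides near the membrane, were at 50.8 and 51.8 FPKM in the younger and 47.1 and 48.0 FPKM in the older mice. Bpifa1, a secreted inhibitor of ENaC in the airway, had 0.935 FPKM at 2 months and 0.0560 at 6 months. It was under the filter of 1 FPKM, and without the filter it was the only one of the 65 genes past 1.5-fold on the log2(FPKM + 1) scale.

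Sodium that enters through ENaC leaves by the sodium pump. Atp1b3, which encodes a β subunit of the pump, was at 240.4 and 227.2 FPKM. Atp1b1, which encodes another, was at 37.8 and 27.3 FPKM, and its change of -0.46 was the lowest of the list. Fxyd3, a pump regulator, had the highest level, with 817.7 FPKM at 2 months and 682.8 at 6 months. Kcne3, a potassium channel β subunit, had a change of -0.45, from 50.4 to 36.7 FPKM, and its partner Kcnq1 was at 11.7 and 9.72 FPKM. In all, 13 of 14 pump and transport genes were lower, or 12 of 14 after the upper quartile scaling, and the median change was -0.19. The share of all expressed genes that were lower was 53.7%, or 47.8% after that scaling.

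Other salt taste genes had 2 expressed members. Calhm1, a subunit of the ATP release channel of taste cells, was at 2.39 FPKM at 2 months and 2.77 at 6 months. Tmc4, a voltage-gated chloride channel tied to taste of concentrated salt, was at 50.8 and 45.2 FPKM. Trpv1 and Agtr1a were under 1 FPKM, and Calhm3 was not analysed here.

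**Figure D3:**
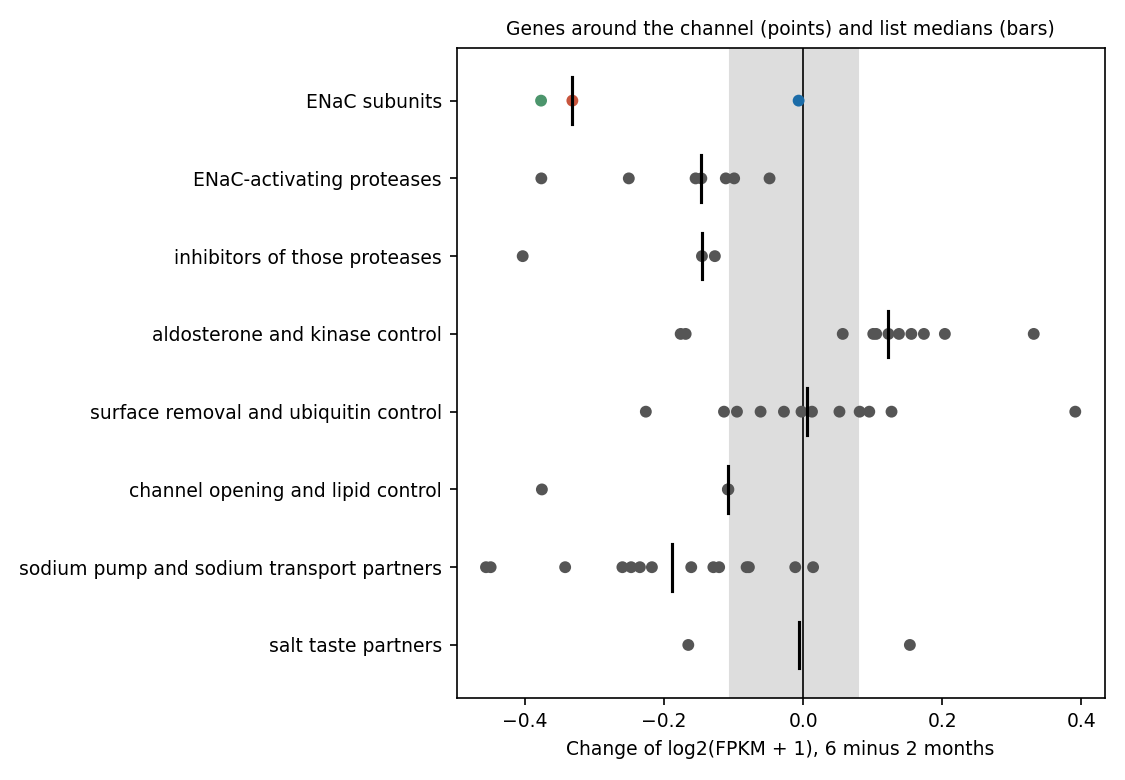
Change of log2(FPKM + 1), 6 minus 2 months, of each expressed gene in the lists around the channel. Each point is a gene, the black bar is the median of its list, and the grey band spans the quartiles of all genes, -0.10 to 0.08. Among the coloured subunits, Scnn1a is near 0 and Scnn1b and Scnn1g are among the lowest points. The protease and pump lists lie mostly below 0, and the hormone and kinase list mostly above.

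The cells held taste cells and other epithelium, so the ENaC values cannot be given to one cell type, and in such a mixture fewer cells of a type and less RNA per cell cannot be told apart. Markers of each taste cell type were present, with Entpd2 (type I) at 66.1 FPKM at 2 months and 57.7 at 6 months, Trpm5 (type II) at 29.1 and 27.7 FPKM and Pkd2l1 (type III) at 12.4 and 14.0 FPKM. Of the type I list, the class to which salt taste has been tied, Kcnj1 was at 9.25 and 7.71 FPKM and Slc1a3 at 0.710 and 0.988 FPKM. The summed level of the type I list was 76.1 FPKM at 2 months and 66.4 at 6 months, that of the type II list was 212.4 and 219.4 FPKM, and that of the type III list was 32.4 and 37.3 FPKM. The 2 expressed type I markers, Entpd2 and Kcnj1, had lower values at 6 months, while Slc1a3, under 1 FPKM, had a higher one. Kcnj1 is also on the list of pump and transport genes. Of the type II markers, 3 of 5 had higher values, among them Plcb2, at 53.3 and 55.1 FPKM, and Itpr3, at 35.0 and 42.1 FPKM. Of the type III markers, 5 of 6 had higher values. Over all expressed genes, 53.7% had lower values.

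Genes of basal keratinocytes were high, with Krt5 at 2180 FPKM at 2 months and 1962 at 6 months and Krt14 at 1287 and 1533 FPKM. Krt13 was listed at 0 in both ages and Krt4 was listed at 0 at 6 months against 7334 FPKM at 2 months. Exact zeros of such abundant keratin genes can be failed estimates, so no change is given for them. Scnn1a, Scnn1b and Scnn1g had values above 0 at both ages.

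Markers of cornifying keratinocytes and lingual glands moved in the same direction as Scnn1b and Scnn1g. For the counts below, 53.7% of all expressed genes were lower at 6 months. All 4 cornifying markers in the table were lower at 6 months, with a summed level of 1515 FPKM at 2 months and 852.1 at 6 months. All 3 expressed gland markers were lower, and the summed level of the 5 in the table was 134.0 FPKM at 2 months and 44.5 at 6 months. The gland lipase gene Lipf went from 83.7 to 14.7 FPKM and Bpifb1, a secreted protein, was at 28.6 and 10.6 FPKM, while Muc5b, a gland mucin, was at 20.1 and 18.2 FPKM. The fibroblast list had 2 of 2 genes lower, with a sum of 43.5 and 28.5 FPKM, nearly all of it from Dcn, and Col1a1, Col1a2 and Col3a1 were under 1 FPKM at both ages. The leukocyte list had 2 of 3 expressed genes lower, with a sum of 305.2 and 263.3 FPKM, nearly all of it from Lyz2. Of its other members, Cd68 was lower at 6 months, with a change of -0.44, the lowest of the list. Ptprc, at 1.54 and 1.65 FPKM, and Cd3e, at 0.370 and 0.822 FPKM, had higher values at 6 months. Skeletal muscle went the other way, with 4 of 4 genes higher and a sum of 7.32 FPKM at 2 months and 16.7 at 6 months. The part of these cell types in the Scnn1b and Scnn1g values was not tested.

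**Figure D4:**
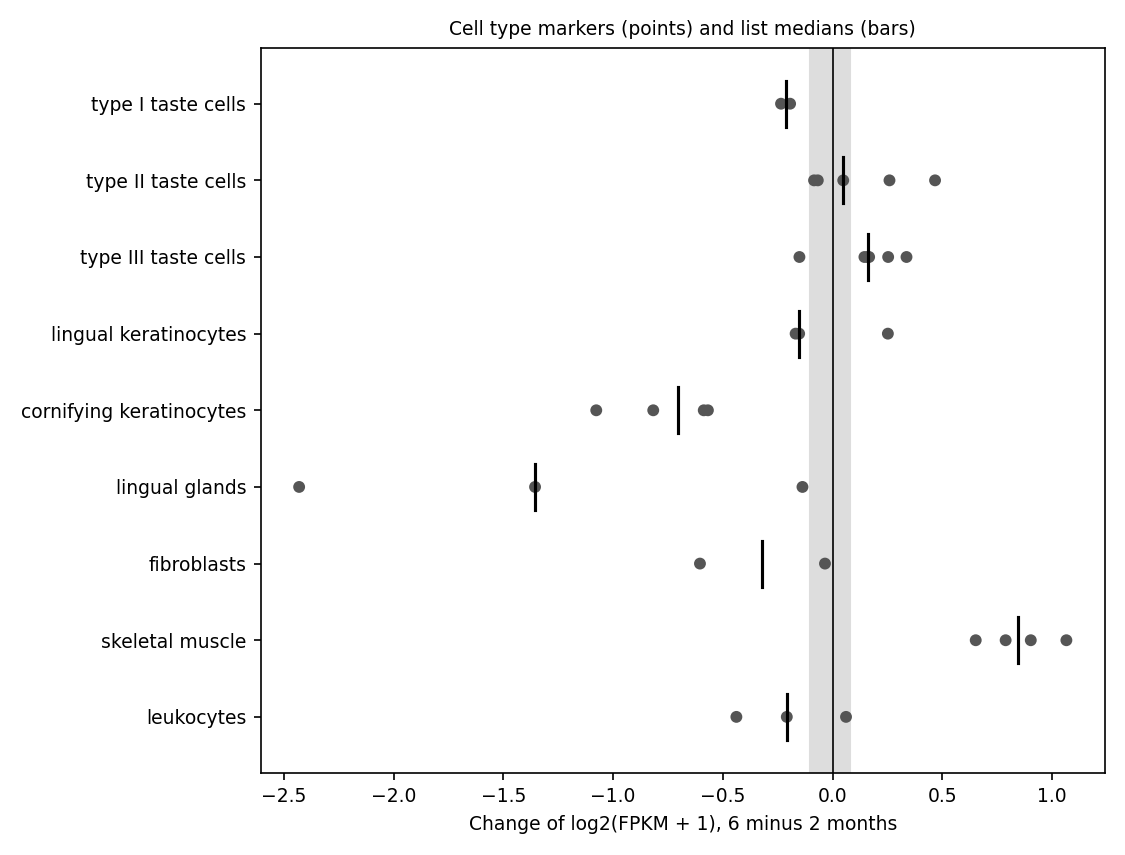
Change of log2(FPKM + 1), 6 minus 2 months, of expressed cell type markers with a value above 0 in both ages, which leaves out Krt4. Points are genes, black bars are list medians, and the grey band spans the quartiles of all genes, -0.10 to 0.08. The cornifying and gland markers lie below 0 and the muscle markers above 0, and the taste cell lists lie closer to the band.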

How the data were processed

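RNA of pooled CV/Fol taste cells was sequenced from 3 libraries at 2 months and 3 at 6 months after poly A selection. The authors mapped reads to GRCm38/mm10 with TopHat2 2.0.7, quantified RefSeq genes as FPKM with Cufflinks 2.1.1 and compared the ages with Cuffdiff, and deposited 1 FPKM value per gene and age. The library normalization of Cuffdiff and the use of strand are not given in the sources used here. Columns were tied to ages by the group letters in the sample titles. The table also holds p-values of the authors' own comparison, which were not used. FPKM values keep no depth, which is unknown, so no interval or detection floor is given.

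Changes are differences of log2(FPKM + 1), and genes averaging 1 FPKM or more were called expressed and kept for counts. No test was made, because each age has 1 value. The subunits and gene lists were chosen with earlier results of these data known. Named genes are the subunits, members of the lists, the first 3 markers of a list, and the 2 genes nearest to each subunit. Krt4, Muc5b, Dcn, Lyz2 and the overlapping gene Cog7 were added after their values were seen. Alternatives were a pseudocount of 0.1, the same upper quartile, no filter, an average of 5 FPKM or more, 2-fold, and leaving out genes listed at 0 in one age. Listed genes not named in the text enter the counts, medians and sums, and their own values are not reported here. Positions are from GENCODE and promoters from RefSeq. Python 3.11.15, numpy 2.4.6, pandas 2.3.3 and matplotlib 3.10.9 were used.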

Additional observations from a re-analysis of the deposited data

How the results depend on the processing

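No paired analysis was possible because values of single libraries were not analysed, and for the same reason no replicate was left out and no spread was available to judge a move. With a pseudocount of 0.1 FPKM the change was -0.37 for Scnn1b and -0.44 for Scnn1g, and that of Scnn1a was -0.0065. With the same upper quartile in both ages it was 0.015 for Scnn1a, -0.31 for Scnn1b and -0.36 for Scnn1g. Scnn1b and Scnn1g were thus lower at 6 months under both, while the sign of Scnn1a depended on the scaling. Among the 65 genes of the lists, 1 was lower by at least 1.5-fold without the filter on low values, and 0 under the other alternatives. Over all genes, 217 were lower and 133 higher by at least 1.5-fold, and 131 were lower and 71 higher by at least 2-fold. Leaving out genes listed at 0 in one age, chosen after seeing the data, gave 169 lower and 102 higher. The ratios of subunit levels within an age depend on neither the pseudocount nor the scaling.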
